A study of Drosophila melanogaster with 12 samples.

Results

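The genes of oxidative phosphorylation were followed in the γ neurons of the Drosophila melanogaster mushroom body during early metamorphosis. Members were taken by name: symbols, or current FlyBase symbols of the same gene, that start with ND-, UQCR-, COX and a number, ATPsyn or Sdh, together with blw, RFeSP, Cyt-c1 and Cyt-c-p. This gave 92 of the 17050 genes in the deposited table, 7 of them found only through the current symbol. Tests took the 68 of the 92 that reached a value of 50 in 3 or more libraries: 33 of 40 for complex I, 5 of 8 for complex II, 8 of 11 for complex III, 9 of 16 for complex IV, 12 of 16 for complex V, and Cyt-c-p. Subunit genes under other names, such as levy, cype and sun, are not members and are left out of all counts, medians and sums by complex. The values are reads scaled to 10000000 mapped reads, so 50 stood for 7.99 to 18.8 reads.

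The 12 libraries cover 4 pupal times, 6, 12, 18 and 24 h after the puparium forms, each with replicates A, B and C (n = 3). The genotype given for the animals was y,w/+ on the X chromosome, UAS-RedStinger/+ as the nuclear red reporter, and the driver 71G10 over UAS-HR51 RNAi. The driver thus expressed the reporter together with an RNA interference construct against Hr51, a nuclear receptor gene also known as unfulfilled. For each library 1000 DsRed-positive cells were sorted from dissociated brains of animals of either sex. No group without the construct was analysed here, so every comparison is between times within this one genotype, and normal development and the knockdown cannot be told apart.

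Oxidative phosphorylation makes most of the ATP of a neuron. Complexes I and II feed electrons from NADH and succinate to ubiquinone, complex III passes them to cytochrome c, and complex IV passes them to oxygen. Complexes I, III and IV pump protons across the inner mitochondrial membrane, and complex V, the ATP synthase, lets them back through its rotating c ring to make ATP. Most subunits come from nuclear genes, which are the ones described here, while membrane subunits of complex I, cytochrome b of complex III, the catalytic subunits of complex IV and part of the membrane sector of complex V come from the mitochondrial genome, of which the table held 0 genes. γ neurons prune their larval axons and later grow adult ones over the first day or so of the pupal stage.

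Hr51 itself had values of 2661 to 5666 in the 12 libraries, and without a control genotype these do not measure the knockdown. Library depth ran from 1597241 to 3752666 mapped reads. The 11 neuronal and Kenyon cell markers, 10 or 11 of them detected in each library, took 2.40%, 2.15% and 2.18% of the reads in replicates A, B and C of 24 h, against 1.30%, 1.61% and 1.58% in those of 6 h, without overlap. Most of each sum came from mamo, with values of 181831, 148289 and 158865 at 24 h, against 83570, 112216 and 113302 at 6 h. Of the 11 markers, sNPF and nSyb overlapped between these times. The 8 glial markers took 0.0242%, 0.0262% and 0.0138% at 24 h, against 0.0230%, 0.0474% and 0.0403% at 6 h, most of it from nrv2 and with repo detected in 6 of the 12 libraries. The 5 photoreceptor markers took 0.0539%, 0.0525% and 0.0640% at 24 h, against 0.0351%, 0.0222% and 0.0170% at 6 h, without overlap, nearly all from norpA, while ninaE had reads in 1 of the 12 libraries. The 6 hemocyte markers took 0.00112%, 0.00475% and 0.00545% at 24 h, against 0.00353%, 5.33e-05% and 0.00138% at 6 h, with Pxn the single one detected in B and C of 24 h, and with Hml and NimC1 at 0 reads throughout. The 8 muscle markers, from a tissue rich in mitochondria, took 0% to 0.000607% with 0 to 2 detected and Mhc at 0 reads, the 6 fat body markers 0% to 0.00270%, and the 6 markers of dividing cells 0.000127% to 0.00394%. The part of these marker differences in the results was not tested. In libraries of sorted cells, less RNA per cell and fewer cells of a type cannot be told apart. The labels do not say whether the 3 replicates of a time came from separate dissections, so p-values measure the spread between these libraries, which may be technical.

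The 68 genes together took 2.06%, 0.799% and 0.976% of the mapped reads at 6 h (replicates A, B and C in this order), and 1.005%, 1.43% and 1.43% at 12 h. They took 1.48%, 1.70% and 1.77% at 18 h, and 1.56%, 1.45% and 1.71% at 24 h. The libraries of 18 and 24 h thus lay close together, whereas replicate A stood highest of all 12 at 6 h and was the lowest of its time at 12 and 18 h. For 6, 12, 18 and 24 h the means were 1.28 ± 0.685%, 1.29 ± 0.246%, 1.65 ± 0.152% and 1.57 ± 0.129% (SD, n = 3). In replicates B and C alone they were 0.888 ± 0.125%, 1.43 ± 0.00408%, 1.73 ± 0.0462% and 1.58 ± 0.182% (SD, n = 2). The 95% Wilson intervals of these shares, which cover counting error only, reached at most 0.0183 percentage points to either side.

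Replicate A of 6 h differed from its partners across nearly the whole set. It lay above both B and C for 59 of the 68 genes, 86.8%, against 43.0% of all 6969 genes tested. It was the highest of the 12 libraries for 33 of the 68, against 10.9% of all genes tested, while replicate B of 6 h was the lowest for 31, against 12.0%. At 12 h the order was turned round: replicate A lay below both B and C for 41 of the 68 genes, 60.3%, against 39.3% of all genes tested. Replicate A of 18 h also lay below both partners for 37 of the 68, 54.4%, against 32.6% of all genes tested. Within a library, the sum of complex V over that of complex I was 2.45 in replicate A of 6 h, among the 2.18 to 2.86 of 8 of the 9 libraries of 12 to 24 h, and 1.52 in replicate A of 12 h, beside the 1.50 and 1.45 of B and C of 6 h. By this ratio the libraries labelled 6 h A and 12 h A thus lay apart from the other libraries of their time. Whether they hold the times on their labels was not tested, the labels were kept as given, and this bears on every 6 h and 12 h value of replicate A and on each result over all 12 libraries. Results are therefore given with all 12 libraries and with replicates B and C alone. Replicate A was set aside for its position in these same genes, so leaving it out raises most of the changes at 12 h and at 24 h against 6 h by construction. Replicate A of 24 h did not stand apart and was left out by its letter only. It lay above both partners for 22 of the 68 genes, 32.4%, and below both for 21, 30.9%, against 33.7% and 34.2% of all genes tested. Calls in B and C describe those 8 libraries and are no independent support for a change with time.

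**Figure D1:**
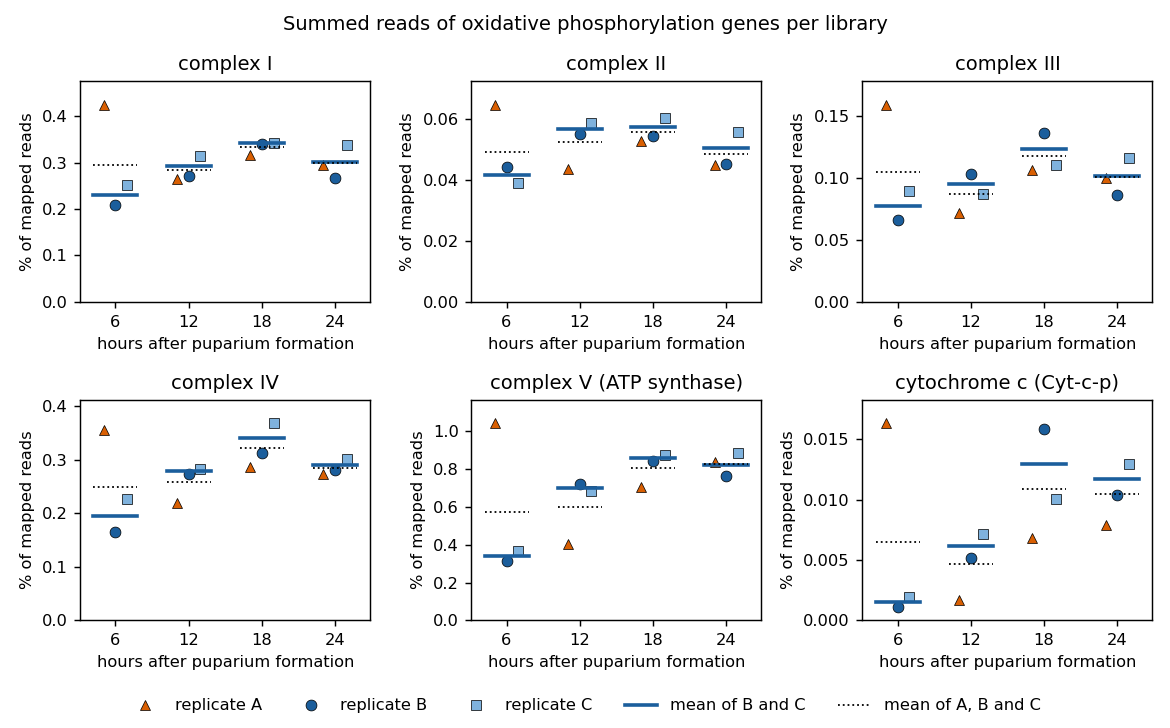
Summed reads of the tested genes of each complex, as percent of mapped reads (y axis, from 0), in each library by hours after puparium formation (x axis). Triangles, circles and squares stand for replicates A, B and C, solid lines for the mean of B and C and dotted lines for the mean of all 3. At 6 h replicate A lies far above B and C in every panel, for complex V at 1.04% beside 0.313% and 0.367%.

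With all 12 libraries, no member was called in any comparison by limma at an adjusted p under 0.05, and 0.0% of all genes tested were. At an unadjusted p under 0.05, 2 of the 68 members differed at 12 h against 6 h (4.75% of all genes tested), 3 at 18 h against 12 h (6.14%), 3 at 24 h against 18 h (6.95%) and 5 at 24 h against 6 h (13.5%). None of these shares exceeded the one over all genes. On the recovered reads edgeR called 0 members in every comparison, and DESeq2 called 1, ATPsynbeta, higher at 24 h against 6 h, where it called 1.0% of all genes higher. The median log2 change of the 68 genes was 0.28 at 24 h against 6 h, beside −0.00 over all genes tested, and 52 of the 68 changes were positive. It was 0.34 at 18 h against 12 h, beside 0.03. At 24 h against 18 h it was −0.12, beside −0.11 over all genes. At 12 h against 6 h it was 0.04, beside 0.07, and −0.02 with median-ratio scaling.

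In replicates B and C, 15 of the 68 genes were called higher and 0 lower at 24 h against 6 h, where 5.29% of all genes tested were called higher and 4.78% lower. Of these, 9 belonged to the 12 tested genes of complex V, 2 each to complexes I and IV and 1 to complex III, and the remaining one was Cyt-c-p. At 12 h against 6 h 7 were called higher and 0 lower, beside 3.3% and 2.3% of all genes: 6 genes of complex V and Cyt-c-p. No member was called at 18 h against 12 h or at 24 h against 18 h, where 0.359% and 0.129% of all genes were called in either direction. At an unadjusted p under 0.05 these 2 comparisons took 6 and 4 members, 8.82% and 5.88% of the 68, beside 9.71% and 8.7% of all genes. The median change over the 68 genes was 0.58 at 24 h against 6 h and 0.43 at 12 h against 6 h, and for the next pairs of neighbouring times it was 0.33 and −0.17. Over all genes tested the medians in the same order were 0.07, 0.16, −0.01 and −0.08. The calls for ATPsynC, blw, Cyt-c-p and ATPsyndelta at 24 h against 6 h held in all 15 other settings tried, while the count of 15 was 8 without replicate B of 6 h and 5 without replicate C of 24 h. The other 11 calls were each lost in at least 1 setting, those for COX4, COX6B and ND-39 in 3 (without replicate B of 6 h and without B or C of 24 h) and that for ATPsyngamma in 6. The count of 7 was 4 without replicate B of 6 h and 2 without replicate C of 12 h, the calls for ATPsynC and blw holding throughout, and those for ATPsynO and ATPsynF were lost in 11 and 10 of the 15, with both other scalings and with no filter among them. When only replicate A of 6 h was left out of the 12 libraries, 13 of the 68 were called higher at 24 h against 6 h, beside 5.27% of all genes, and 0 in any pair of neighbouring times.

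By complex, the median log2 change in replicates B and C at 24 h against 6 h was 0.54 for complex I, 0.32 for complex II, 0.57 for complex III, 0.79 for complex IV and 1.15 for complex V, and Cyt-c-p changed by 2.97. In all 12 libraries the same medians were 0.19, −0.08, 0.13, 0.30 and 0.69, with 1.63 for Cyt-c-p. Complex V had the highest median of the 5 complexes in both, and each of its 12 tested members had a positive change in both. These medians describe lists of unequal size and carry no test. Median-ratio and TMM scaling changed the sign of none of them.

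**Figure D2:**
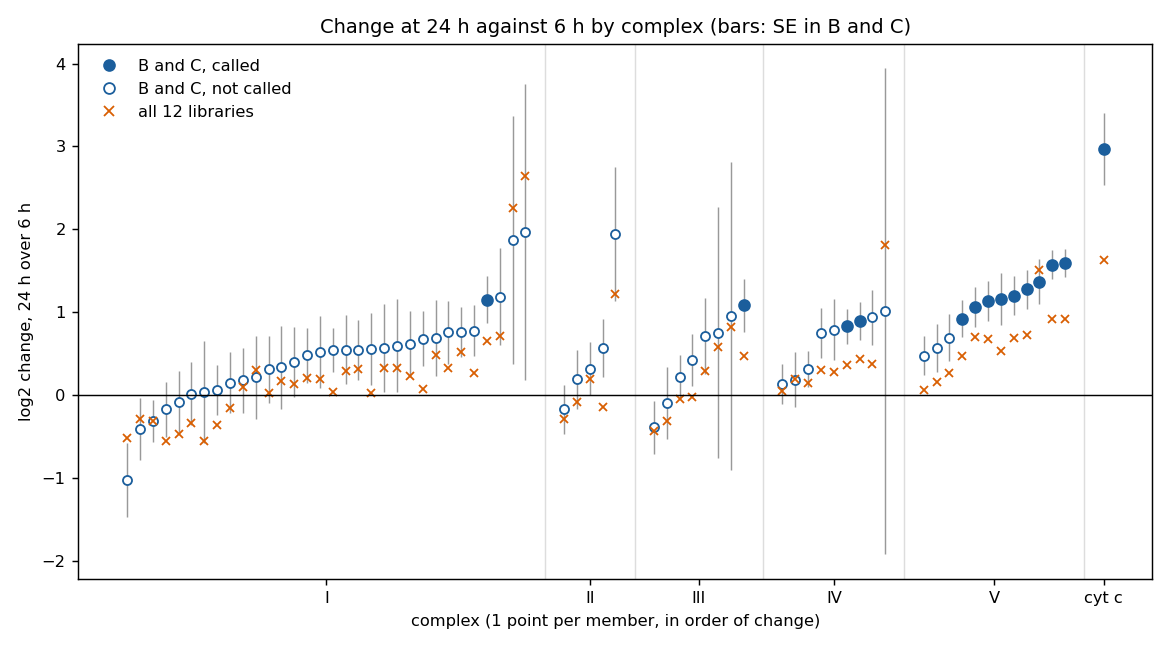
Log2 change at 24 h over 6 h (y axis) of 67 tested members, grouped by complex and ordered by size within it (x axis). Filled and open circles are changes in replicates B and C, called and not called at an adjusted p under 0.05, with bars of 1 SE, and crosses are changes over all 12 libraries. ND-MWFE, which had 0 reads in B and C at 6 h, is left out. The filled circles gather in complex V, where 9 of 12 are called.

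ATP synthase carried the largest share of these reads and, in replicates B and C, the most calls, while limma over all 12 libraries called 0 of its members. Replicate A lay above both partners for 11 of its 12 tested members at 6 h and below both for 11 at 12 h. Setting A aside for such positions therefore bears directly on these calls. Its F1 head holds the catalytic β subunits (ATPsynbeta) alternating with α subunits (blw), its central stalk holds γ and δ, and its membrane sector turns the c ring (ATPsynC). ATPsynC (chromosome 3R, 31216145 to 31219630, dm6, minus strand) had values of 36730, 8764 and 8922 in replicates A, B and C at 6 h, 10254, 24421 and 21269 at 12 h, 23388, 28818 and 28639 at 18 h, and 27618, 24884 and 28616 at 24 h. Replicates B and C of 6 h and A of 12 h were the 3 low libraries, and A of 6 h was the highest, so the times overlapped over all 12. In replicates B and C the change at 24 h against 6 h was 1.59 ± 0.17 on the log2 scale (SE, adjusted p = 9.51e-06), a 3.02-fold difference. Most of that difference was present at 12 h against 6 h, at 1.37 (adjusted p = 0.000101). Over all 12 libraries the change at 24 h against 6 h was 0.93 ± 0.44 (adjusted p = 0.374).

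The α subunit gene blw (chromosome 2R, 22799099 to 22802180, plus strand) had 16829, 4594 and 4796 at 6 h, 6068, 10962 and 10189 at 12 h, 9896, 15561 and 15536 at 18 h, and 12676, 14074 and 13927 at 24 h. The same 3 libraries were low as for ATPsynC, and A of 6 h was again the highest. In replicates B and C its log2 change was 1.58 ± 0.17 at 24 h against 6 h (adjusted p = 1.38e-05) and 1.17 at 12 h against 6 h (adjusted p = 0.000512), whereas all 12 libraries gave 0.91 ± 0.40 at 24 h against 6 h (adjusted p = 0.336). The ratio of blw to ATPsynC within a library, which no scaling can alter, stayed between 0.423 and 0.592 in the 12 libraries.

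ATPsynbeta (chromosome 4, 1031484 to 1034917, plus strand), which encodes the catalytic subunit, did not lie above both partners in replicate A of 6 h. That position held for 11 of the 12 tested members of complex V and for 59 of all 68 members. It had 1947, 1695 and 2736 at 6 h, 2807, 5846 and 6417 at 12 h, 4367, 2713 and 4407 at 18 h, and 6680, 5617 and 5509 at 24 h. All 3 libraries of 24 h lay above all 3 of 6 h, which held for 3 of the 68 members (8.25% of all genes tested), the others being ND-AGGG and ND-MLRQ with values under 211. Its change over all 12 libraries was 1.51 ± 0.31, with the smallest unadjusted p of the 68 (0.000185, limma adjusted p = 0.0993). The adjusted p was 0.00545 with DESeq2 and 0.0494 in limma without replicate A of 12 h. Replicates B and C gave a log2 change of 1.37 ± 0.27 (adjusted p = 0.00300), and without replicate B of 6 h the adjusted p was 0.0508. The ratio of blw to ATPsynbeta was 8.64, 2.71 and 1.75 at 6 h, 2.16, 1.88 and 1.59 at 12 h, 2.27, 5.74 and 3.53 at 18 h, and 1.90, 2.51 and 2.53 at 24 h, so that A of 6 h and B of 18 h stood out. ATPsynbeta overlaps CG11076 on the other strand by 275 bases, and the sources used here do not say whether reads were counted by strand.

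**Figure D3:**
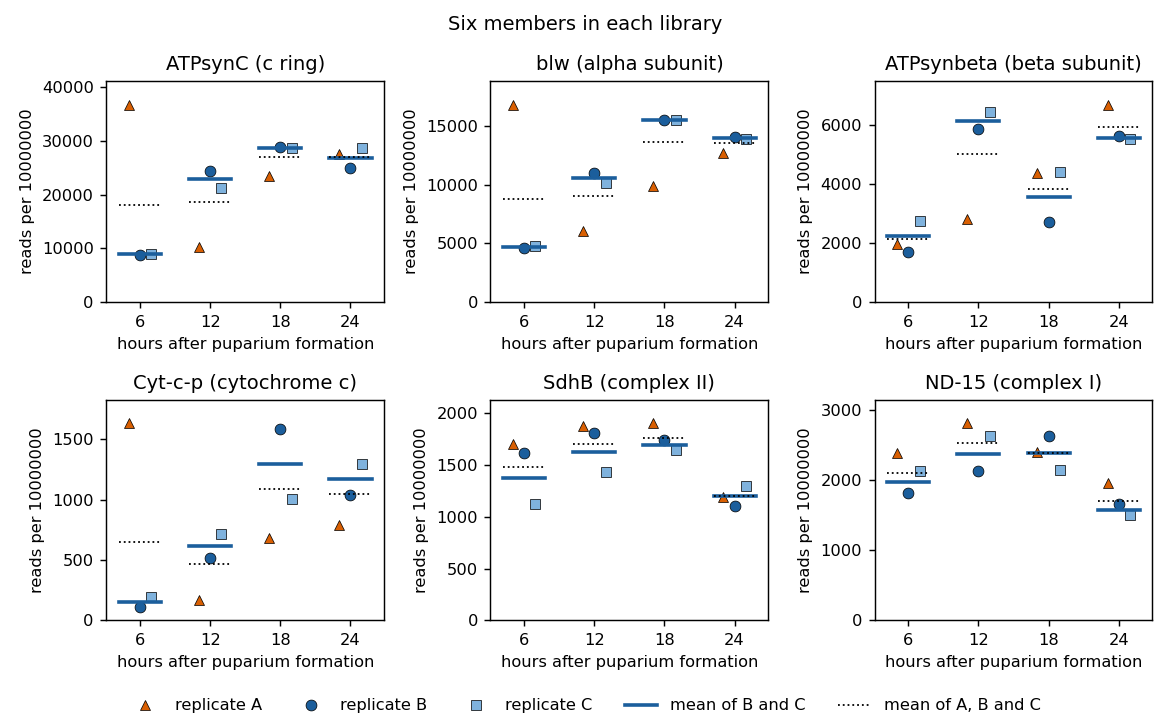
Values of 6 members, in reads per 10000000 mapped reads (y axes, from 0), in each library by hours after puparium formation (x axes), with replicates and means marked as in the plot of summed reads. ATPsynC, blw and Cyt-c-p show the high replicate A of 6 h and the low replicate A of 12 h, ATPsynbeta lacks the first, and SdhB and ND-15 are lower at 24 h than at 18 h in every library. Such a fall without overlap held for 9.63% of all genes tested.

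Another 6 genes of the complex were called higher in replicates B and C at 24 h against 6 h. They were ATPsyndelta of the central stalk (1.28 ± 0.23, adjusted p = 0.00148), ATPsynO, the OSCP that ties the stalk to the head (1.20 ± 0.23, adjusted p = 0.00274), and ATPsyngamma, the rotor shaft (1.16 ± 0.31, adjusted p = 0.0270). The others were ATPsynF of the membrane sector (1.14 ± 0.24, adjusted p = 0.00557), and ATPsynB (1.07 ± 0.24, adjusted p = 0.00823) and ATPsynD (0.92 ± 0.22, adjusted p = 0.0134) of the peripheral stalk. ATPsyndelta was also called at 12 h against 6 h, except without replicate C of 12 h, and ATPsynO and ATPsynF in a minority of the settings, as given above. The values of ATPsyndelta were 5479, 1868 and 1471 at 6 h, 2158, 3821 and 3799 at 12 h, 2407, 3878 and 4432 at 18 h, and 4220, 4515 and 3577 at 24 h. Its replicate A was above both partners at 6 h and below both at 12 and 18 h.

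Of the 12 tested members of complex V, the 3 that were not called were ATPsynE and ATPsynG of the membrane sector and ATPsynCF6 of the peripheral stalk. Their changes in replicates B and C at 24 h against 6 h were 0.70, 0.57 and 0.48. ATPsynCF6 had 4484, 1743 and 2223 at 6 h, 1812, 2312 and 2288 at 12 h, 2849, 3004 and 3062 at 18 h, and 2659, 2639 and 2847 at 24 h. Its 9 libraries of 12, 18 and 24 h lay between 1812 and 3062, and all 3 libraries of 18 h lay above those of 12 h and of 24 h. Its change over all 12 libraries was 0.07 ± 0.29 (adjusted p = 0.964), the smallest of these 12 members.

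The sum of complex V over the sum of complex I within a library was 2.45, 1.50 and 1.45 at 6 h, 1.52, 2.65 and 2.18 at 12 h, 2.23, 2.47 and 2.56 at 18 h, and 2.83, 2.86 and 2.62 at 24 h. Replicates B and C of 6 h and replicate A of 12 h were at 1.45 to 1.52, and the other 9 libraries were at 2.18 or more, all 3 of 24 h above all 3 of 6 h. A ratio within a library does not depend on scaling, and shows that the complexes differed unequally, not which of them did. The corresponding ratio for complex IV ran from 0.791 to 1.08, with values of 0.928, 1.05 and 0.891 at 24 h, against 0.838, 0.791 and 0.894 at 6 h, which overlapped.

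**Figure D4:**
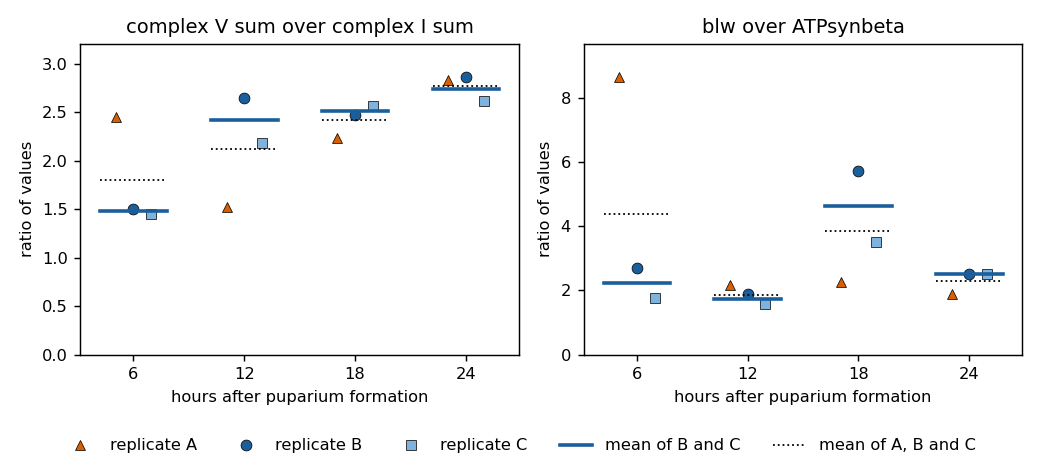
Ratio of the summed values of complex V to those of complex I (left) and of blw to ATPsynbeta (right), on y axes from 0, in each library by hours after puparium formation. Replicates and means are marked as in the plot of summed reads. In the left panel replicates B and C of 6 h and A of 12 h lie near 1.5 and the other 9 libraries at 2.18 or more; in the right panel A of 6 h is at 8.64.

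Cyt-c-p encodes the cytochrome c that shuttles electrons from complex III to complex IV. The gene (chromosome 2L, 16719932 to 16722644, plus strand) had 1633, 112 and 194 at 6 h, 167, 515 and 712 at 12 h, 685, 1582 and 1004 at 18 h, and 791, 1041 and 1296 at 24 h. As in ATPsynC, B and C of 6 h and A of 12 h were the 3 low libraries, and A of 6 h was the highest. In replicates B and C it was 7.83-fold higher at 24 h against 6 h, a log2 change of 2.97 ± 0.44 (adjusted p = 0.000215), and 4.09-fold higher at 12 h against 6 h (adjusted p = 0.0101). Over all 12 libraries the change at 24 h against 6 h was 1.63 ± 0.76 (adjusted p = 0.368).

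Among the tested members of complex IV, 2 of 9 were called higher at 24 h against 6 h in replicates B and C, beside 5.29% of all genes tested. The 9 changes were all positive. The complex IV subunit gene levy lies outside the naming rule and is described with the other lists. COX4, a subunit that contacts the catalytic core, had 7883, 2971 and 4840 at 6 h, 3960, 6830 and 5910 at 12 h, 5616, 8000 and 8404 at 18 h, and 5685, 6610 and 7510 at 24 h. Its change was 0.89 ± 0.23 (adjusted p = 0.0207). COX6B, which faces the intermembrane space, had 6418, 2603 and 3243 at 6 h, 3737, 3949 and 4841 at 12 h, 4272, 4827 and 5228 at 18 h, and 4343, 5025 and 5309 at 24 h. Its change was 0.83 ± 0.21 (adjusted p = 0.0209), and it overlaps CG18809 on its own strand, which has 234 reads beside its 13271. COX7C was called only in the test of any change over the 4 times (adjusted p = 0.0343), in which 13 of the 68 members were called, beside 9.44% of all genes, and its call was lost in 9 of the 15 other settings, both scalings and no filter included. It had 1546, 394 and 607 at 6 h, 709, 800 and 1446 at 12 h, 954, 1544 and 1642 at 18 h, and 924, 842 and 853 at 24 h. Its 24 h libraries all lay below those of 18 h, as in 9.63% of all genes tested. COX7A and COX5A had changes of 0.31 ± 0.22 and 0.14 ± 0.24 in B and C (adjusted p = 0.455 and 0.814). COX6AL2, listed as CG14077, had the largest change over 12 libraries, 1.81 ± 2.32 (adjusted p = 0.802), on 103 reads, which the table also gives to the overlapping gene Ir75d in every library.

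In complex III, UQCR-C1, a core protein on the matrix side, was the single gene of 8 called higher, beside 5.29% of all genes. It had 2903, 1140 and 739 at 6 h, 996, 2105 and 1479 at 12 h, 1561, 2532 and 1969 at 18 h, and 1704, 1614 and 2353 at 24 h. Its change in replicates B and C at 24 h against 6 h was 1.09 ± 0.32 (adjusted p = 0.0404, and above 0.05 in 9 of 15 other settings). Cyt-c1, one of the redox subunits, had 3502, 1588 and 2348 at 6 h, 1785, 2309 and 2035 at 12 h, 2238, 2802 and 2701 at 18 h, and 2363, 2417 and 2106 at 24 h. RFeSP, the Rieske iron-sulphur protein, had 3252, 1122 and 2273 at 6 h, 2045, 2342 and 1824 at 12 h, 2476, 2726 and 2448 at 18 h, and 1715, 2006 and 2281 at 24 h. For RFeSP all 3 libraries of 18 h lay above those of 12 h and of 24 h, while for both genes the libraries of 24 h lay within the range of those of 6 h. Their changes at 24 h against 6 h in B and C were 0.22 ± 0.26 for Cyt-c1 (adjusted p = 0.702) and 0.42 ± 0.31 for RFeSP (adjusted p = 0.493). Of the 8 tested members, UQCR-14 had the lowest change, −0.39 ± 0.32 in B and C (adjusted p = 0.554). UQCR-6.4, with a mean value of 56.9, had the highest of the 8 over 12 libraries, 0.82 ± 1.36 (adjusted p = 0.862).

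Complex II, the succinate dehydrogenase shared with the citric acid cycle, had no called gene among 5. The iron-sulphur subunit gene SdhB had 1701, 1618 and 1127 at 6 h, 1875, 1814 and 1430 at 12 h, 1904, 1743 and 1642 at 18 h, and 1189, 1108 and 1300 at 24 h. All 3 libraries of 24 h lay below all 3 of 18 h, which also held for 9.63% of all genes tested. The 24 h libraries overlapped those of 6 h, with a change of −0.17 ± 0.29 at 24 h against 6 h in B and C (adjusted p = 0.812). The flavoprotein gene SdhA had 1327, 850 and 808 at 6 h, 633, 1141 and 691 at 12 h, 967, 878 and 1162 at 18 h, and 449, 1082 and 1398 at 24 h, and the 24 h libraries spanned the whole range of the 6 h ones. Its change was 0.57 ± 0.35 (adjusted p = 0.386). The membrane anchor genes SdhC and SdhD changed by 0.32 ± 0.32 and 0.19 ± 0.36 (adjusted p = 0.641 and 0.829). Sdhaf3, an assembly factor rather than a subunit, had 235, 250 and 425 at 24 h, against 276, 53.3 and 131 at 6 h. Libraries of the 2 times overlapped, and its change of 1.95 ± 0.81 did not pass the threshold (adjusted p = 0.158).

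Complex I, the largest of the 5, had 2 of 33 genes called higher in replicates B and C at 24 h against 6 h, a share near the 5.29% of all genes tested. ND-39, homologous to the accessory subunit NDUFA9 of mammals, had 2313, 935 and 1240 at 6 h, 1076, 1901 and 1290 at 12 h, 1947, 2392 and 1964 at 18 h, and 1837, 2462 and 2328 at 24 h. Its change was 1.15 ± 0.29 (adjusted p = 0.0159), and all 3 libraries of 18 h lay above those of 12 h. ND-MWFE, homologous to the small subunit NDUFA1, had 47.4, 0 and 0 at 6 h, 86.6, 80.3 and 27.0 at 12 h, 43.4, 80.2 and 59.4 at 18 h, and 15.3, 69.6 and 79.9 at 24 h. Replicates B and C held 44 reads at 24 h and 0 at 6 h, which is at least 13.3-fold higher against 3 reads over both 6 h libraries. Its call (adjusted p = 0.0260) was lost in 5 of the 15 other settings, a pseudocount of 5 and edgeR among them. The gene overlaps Nrk on its own strand by 129 bases and TppII on the other strand by 477 bases.

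ND-15 and ND-B16.6 of complex I were not called. ND-15 had 2391, 1809 and 2122 at 6 h, 2811, 2128 and 2628 at 12 h, 2403, 2629 and 2147 at 18 h, and 1954, 1664 and 1496 at 24 h. Its 24 h libraries all lay below those of 18 h, as in 9.63% of all genes tested. The change at 24 h against 6 h was −0.31 ± 0.26 in B and C (adjusted p = 0.551) and −0.31 ± 0.23 over all 12 (adjusted p = 0.603). ND-B16.6, homologous to NDUFA13, had 2283, 1167 and 1434 at 6 h, 1212, 1650 and 1830 at 12 h, 1873, 2030 and 2656 at 18 h, and 2337, 1680 and 2873 at 24 h. In replicates B and C its change at 24 h against 6 h was 0.76 ± 0.30 (adjusted p = 0.132). The largest negative change over all 12 libraries was that of ND-B17, −0.55 ± 0.32 (adjusted p = 0.471), and in B and C that of ND-B14.5B, −1.02 ± 0.44 (adjusted p = 0.180). In all, 28 of the 33 changes were positive in replicates B and C and 24 of 33 over all 12 libraries, beside 3738 and 3472 of all 6969 genes tested.

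Between neighbouring times, libraries separated most often at 18 h against 12 h, where all 3 later libraries lay above all 3 earlier ones for 16 of the 68 genes, 23.5%, beside 7.53% of all genes tested, and below them for 0, beside 5.91%. These 16 comprised 6 genes of complex V (ATPsynB, ATPsyngamma, ATPsynO, ATPsynF, ATPsynE and ATPsynCF6), 5 of complex I, 3 of complex III, and COX7A and COX5A of complex IV. At 24 h against 18 h 7 lay below without overlap and 3 above, beside 9.63% and 6.46% of all genes. The 3 above were ATPsynbeta, Sdhaf3 and UQCR-11. None of these differences passed the adjusted threshold in limma.

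**Figure D5:**
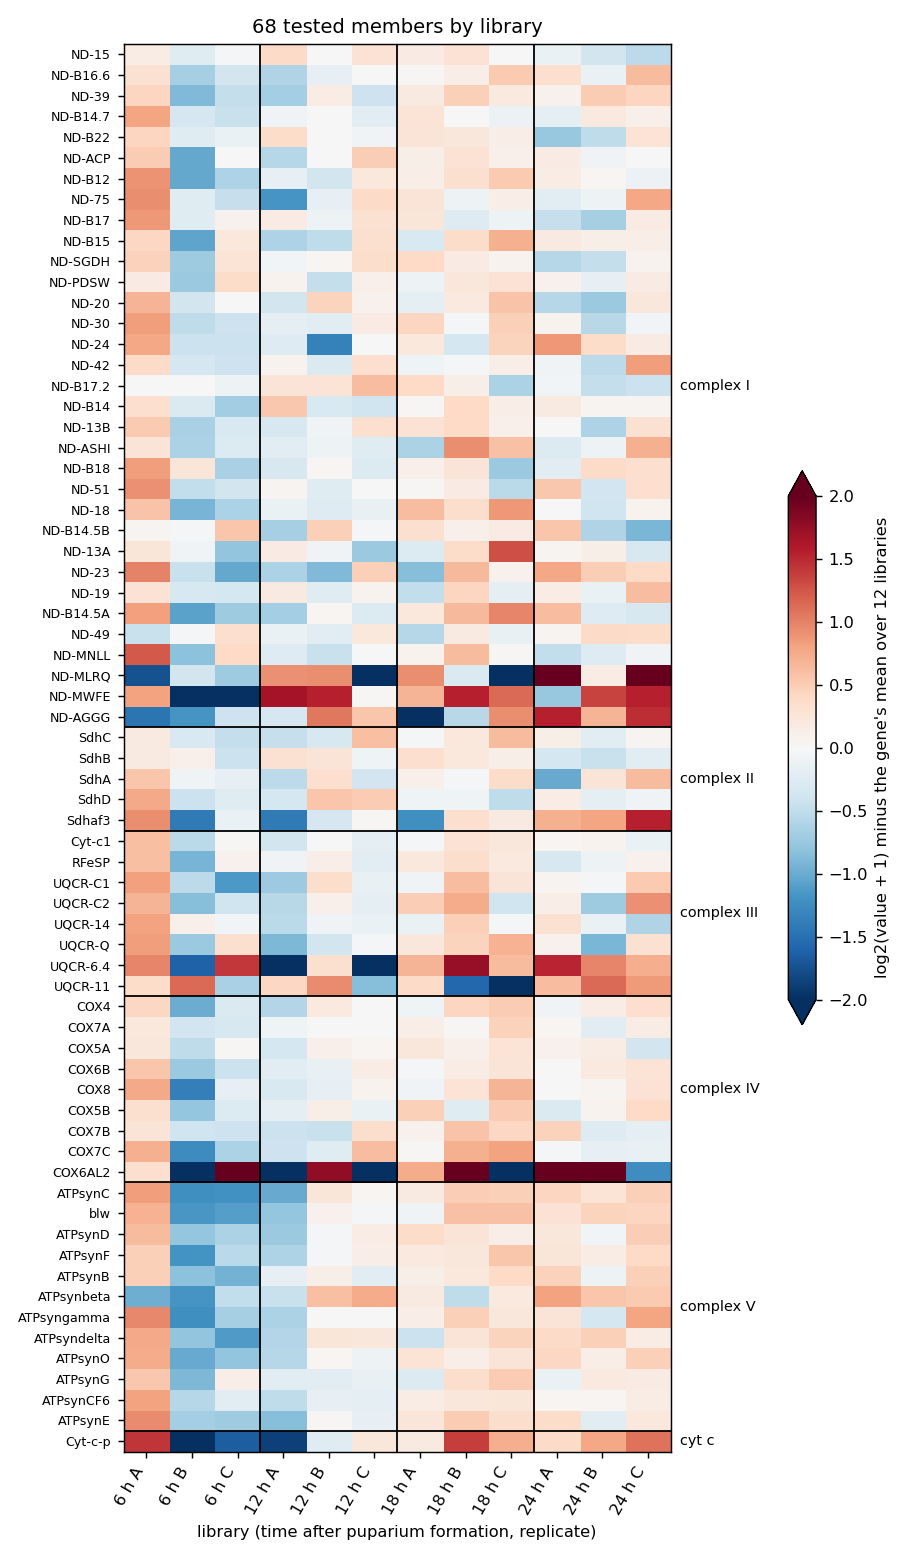
Log2(value + 1) of the 68 tested members in the 12 libraries, as the difference from the gene's mean over all libraries (colour, cut at 2 in both directions). Rows are genes by complex, in order of mean value, and columns are libraries by time and replicate. The column of replicate A at 6 h is mostly red, those of B and C at 6 h mostly blue, and most complex V rows are also blue in replicate A of 12 h.

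The 24 members left out of the tests were mostly duplicated genes. Of them, 23 carry the suffix L for a gene like the named one, and in Drosophila several such duplicates are known for expression in the testis. In these libraries 18 of the 24 had 0 reads throughout, where 0 reads allow a value of up to 7.99 to 18.8 in a library, counting error only. The remaining 6 had a read in at least 1 library. Just outside the filter were ATPsynepsilonL, with 35 reads in 5 libraries, and ND-B8, the one gene of the 24 without the suffix, with 17 reads in 2 libraries. Just inside were ND-AGGG, with a mean value of 34.2 and 3 libraries at 50 or more, and COX6AL2, with 4. ND-MNLL shared every one of its 938 reads with the overlapping gene CG45089, so its value could belong to either.

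Other genes of mitochondrial energy metabolism, listed by function, were set beside the members, with 0 called in each list over all 12 libraries and the counts that follow from replicates B and C at 24 h against 6 h. They stand beside 5.29% of all genes tested called higher and 4.78% called lower there. Of 4 tested subunit genes known under other names, levy, the complex IV subunit 6A, was called higher at 1.25 ± 0.21 (adjusted p = 0.000866). Replicates B and C had 7278 and 8000 at 24 h, against 2801 and 3650 at 6 h, and A of 6 h was its highest library with 10502. In the same list cype, at 0.82 ± 0.32 (adjusted p = 0.131), and sun, at 0.33 ± 0.32 (adjusted p = 0.623), were not called. Over all 12 libraries the change of sun was 0.07 ± 0.41 (adjusted p = 0.973). Of 21 genes of the citric acid cycle and pyruvate dehydrogenase, 6 were called higher and 1 lower. The fumarase gene Fum1, listed as l(1)G0255, had a change of 1.84 ± 0.28 (adjusted p = 0.000300) and the malate dehydrogenase gene Mdh2 one of 1.71 ± 0.29 (adjusted p = 0.000784). Pdk, the kinase that switches off pyruvate dehydrogenase, had a change of −2.62 (adjusted p = 0.000703), with 231 and 410 in B and C at 24 h, against 1503 and 2385 at 6 h.

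Of 20 carriers and pores, 4 were called higher and 0 lower. The 4 were porin, Mpcp2, sesB and Ant2, of which sesB and Ant2 hold nearly the same reads and so are not separate calls. The outer membrane channel gene porin had a change of 1.59 ± 0.19 (adjusted p = 3.49e-05) and the phosphate carrier gene Mpcp2 one of 2.04 ± 0.33 (adjusted p = 0.000556). The adenine nucleotide translocator gene sesB had a change of 1.79 ± 0.19 (adjusted p = 1.03e-05), and the table gives nearly the same reads to the overlapping gene Ant2, with a difference of at most 25 reads in a library. No gene was called among several lists for building or copying the mitochondrion. Of 16 assembly and maturation factors, 70 genes of the mitochondrial ribosome, 10 of mitochondrial DNA and transcription and 8 of dynamics and transport, 0 were called in either direction, with medians of 0.42, −0.11, −0.14 and 0.19. Of 8 regulators of biogenesis, Myc, a transcription factor that drives growth, was called higher at 1.44 ± 0.21 (adjusted p = 0.000187).

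Of 12 tested genes of glycolysis, 6 were called lower and 0 higher in replicates B and C at 24 h against 6 h, beside 4.78% and 5.29% of all genes, with a median of −1.50. Eno, the enolase gene, had 6315, 12559 and 14143 in A, B and C at 6 h, 11010, 4374 and 4571 at 12 h, 4480, 5464 and 5748 at 18 h, and 5368, 4408 and 4227 at 24 h. Its 3 highest libraries, B and C of 6 h and A of 12 h, were the 3 in which ATPsynC, blw and Cyt-c-p were lowest. Over all 12 libraries no gene of this list was called.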

How the data were processed

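Reads of MARS-seq libraries, a 3′-end method, had been counted per gene before deposit. Tools listed in the submitters' processing notes are HISAT 0.1.5, HOMER and bcl2fastq, with no roles or settings. How strand, multiple mapping and molecular identifiers were handled was not given in the sources used here. The deposited table holds a signal per gene and library, scaled by the authors to 10000000 mapped reads per the file headers. A single read was worth 2.66 to 6.26 units, 100% of the values came out as whole reads (within 0.02 reads) in every library, and the recovered reads came to 99.3% to 102% of the mapped reads.

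Of the symbols, 12959 were found as such in the BDGP6 annotation, 3938 as synonyms and 153 not at all. Coordinates are those of the table, on dm6 as its name gives the build, counted from 1.

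The 6969 genes that reached 50 in 3 or more libraries were tested on log2(value + 1) with limma 3.58.1 in R 4.3.3, with an intensity trend, 1 mean per time and Benjamini-Hochberg adjustment over all 6969. Tests are two-sided, and the threshold for a call was 0.05 on the adjusted p. Fold changes are on that scale, which for low genes departs from the ratio of reads. The same fit was run on replicates B and C (n = 2 per time). On the recovered reads of all 12 libraries edgeR 4.0.16 called 0 of the members and DESeq2 1.42.0 called 1. Values are reads per gene, not scaled to transcript length. Ratios between genes or complexes were compared between libraries and were not read as ratios of transcript amounts.

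Members and lists were chosen with earlier results of these data known, replicate A's included. Named members are those called in any comparison, the pair with the highest mean per complex, the largest rise and fall per complex, and Hr51, Cyt-c-p, blw, RFeSP, Cyt-c1 and SdhA to SdhD. ND-B14.5B, ND-AGGG, ND-MLRQ, ND-B8, UQCR-11, ATPsynE, ATPsynG and Mpcp2 were named after their values were seen; of the other lists, genes were named by the smallest p. Alternatives are listed with their effect in the closing section.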

Additional observations from a re-analysis of the deposited data

How the results depend on the processing

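The settings tried were median-ratio and TMM scaling, a pseudocount of 5, no filter on low values, edgeR and DESeq2 on the recovered reads, a replicate block, replicates B and C alone, and each library left out. With all 12 libraries, the 0 members called at 24 h against 6 h became 1 with DESeq2 and 15 in replicates B and C, and ranged from 0 to 13 with 1 library left out, at 13 without replicate A of 6 h and at 1 when that of 12 h was left out. For any change over the 4 times the 0 became 1 with DESeq2 and 13 in B and C, and ranged from 0 to 10, at 10 without replicate A of 6 h. At 12 h against 6 h the 0 became 7 in B and C, and the median log2 change of 0.04 became 0.43 in B and C and ranged from −0.22 to 0.36 with 1 library left out. Within replicates B and C, in settings added after the data were seen, the 7 called at 12 h against 6 h became 13 with DESeq2 and ranged from 2 to 8 with 1 library left out. The 0 at 18 h against 12 h became 1 with DESeq2, the 15 at 24 h against 6 h ranged from 5 to 14, and the 13 for any change became 8 without the filter and ranged from 5 to 11. Leaving 1 library out there leaves 1 at its time, whose spread is taken from the others. The causes were not tested.

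Letters did not pair libraries: of 18 pairs with the same letter, 0 had deviations correlated above 0.1 (from −0.34 to 0.07), and 0 libraries matched best with their own letter throughout. With the replicate block the 12 libraries still gave 0 called members in every comparison, and replicates B and C gave 8 at 12 h against 6 h, 16 at 24 h against 6 h and 16 for any change.

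Among single members, small changes at 24 h against 6 h turned sign. ATPsynCF6 was −0.053 with edgeR and −0.052 with DESeq2. In replicates B and C the changes were 0.22 for Cyt-c1, 0.42 for RFeSP, 0.57 for SdhA and 0.19 for SdhD, all negative over 12 libraries. With 1 library left out, ranges were −0.22 to 0.46 for ATPsynCF6, −0.16 to 0.21 for COX5A, −0.15 to 0.83 for COX7C, −0.32 to 0.25 for Cyt-c1, −0.45 to 0.32 for RFeSP, −0.47 to 0.34 for SdhA, −0.31 to 0.29 for SdhD and −0.11 to 1.40 for UQCR-6.4. Of the 32 members followed in this comparison, the other 24 kept their sign in the settings tried, and the remaining named genes and comparisons were not followed singly. A value of 50 stood for as few as 7.99 reads, which limits ND-MWFE, ND-MLRQ, ND-AGGG, UQCR-6.4, UQCR-11 and COX6AL2.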
